A study of Mus musculus with 18 samples.

Results

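Regulatory T (Treg) cells expressing the Foxp3 variant A384T were compared with wild-type Treg cells sorted from the same kind of heterozygous mouse, which took 6 of the 18 arrays of the series. The 3 A384T arrays hold CD4+ cells that were hCD2-positive and GFP-negative, and the 3 arrays of wild-type cells hold CD4+ cells that were GFP-positive and hCD2-negative. All 6 were chosen by title and came from Foxp3 A384T:hCD2/WT:GFP mice, in which the mutant allele carries the human CD2 (hCD2) reporter and the wild-type allele the GFP reporter. Cells of both groups came from lymph nodes and spleen, the mice were of the B6;129 background, and the labels give neither an age nor whether an array stands for 1 mouse or a pool. Mutation and reporter therefore coincide within these mice. The other arrays supplied the background: Treg cells with Foxp3 I363V or R397W and hCD2 (3 arrays each), wild-type Treg cells of Foxp3 WT:hCD2/WT:GFP mice with hCD2 (2 arrays) or GFP (2 arrays), and CD4+ T cells without either reporter, here called conventional T cells (Tconv), of these WT:hCD2/WT:GFP mice (2 arrays). The question was what the variant changes in cells that share their environment with wild-type Treg cells.

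Foxp3 is the X-linked forkhead transcription factor on which Treg cell identity depends, so a heterozygous female holds Treg cells of both kinds side by side after X inactivation. Any other difference between the mutant and the wild-type X chromosome would also coincide with the mutation, which was not tested. A384T lies in the DNA-binding forkhead domain and is known from patients with IPEX, the autoimmune disease caused by loss of FOXP3 function. Some Treg cells leave the resting state to become effector cells that enter non-lymphoid tissues. They are known for KLRG1 and for the AP-1 family factor BATF, which takes part in their differentiation.

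Expression of 18193 genes was compared, on a scale taken as log2 whose 0 is the Tconv mean of each gene, so that a value tells the distance from Tconv cells and absolute levels are not known. Changes are log2 differences, A384T minus wild-type GFP cells of A384T mice, with the SE of a limma fit of all 18 arrays. A gene was called at an adjusted p under 0.05 over all genes. The medians of the 6 arrays lay between -0.033 and -0.002. The median difference over all genes was -0.0023, and 50.7% of genes lay below 0, the background for each list. Nothing in the labels says that the arrays are separate animals. Each p therefore rests on the spread between arrays within groups, estimated over all 18 arrays with a limma prior. This fit leaves out the pairing of same-numbered arrays described below.

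Foxp3 mRNA stood at 7.22, 7.53 and 7.26 in the A384T arrays, against 7.53, 7.59 and 7.58 in the wild-type GFP arrays. Both groups were far above the Tconv level, and they overlapped, since A384T array 2 lay just above wild-type GFP array 1. The difference was -0.23 ± 0.17 and was not called (limma, adjusted p = 1). Of 9 T cell identity genes 0 were called, with differences between -0.11 and 0.14.

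A total of 31 genes (0.17% of those tested) were higher in A384T cells and 64 (0.352%) were lower. Each of the 95 had the same sign in all 3 pairs of same-numbered arrays, and their groups did not overlap. The 95 were chosen by the difference between these same arrays, so both traits largely follow from the choice and are no added support. Over all genes, the A384T arrays lay above every wild-type array for 4.77% and below every one for 6.39%. The called differences passed 2-fold for 18 of the higher and 46 of the lower genes. Same-numbered arrays of the groups deviated together, and a fit of these 6 arrays with the number as a block called 330 genes higher (1.81%) and 622 lower (3.42%), including all 95. Without a block these arrays gave 43 (0.236%) and 102 (0.561%). In the fit of 18 arrays the block gave 37 (0.203%) and 80 (0.44%), and 88 of the 95 were called again.

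Single arrays weighed on these counts. Leaving out A384T array 1, 2 or 3 gave 23, 16 and 19 higher genes and 26, 36 and 34 lower ones. Leaving out wild-type GFP array 1, 2 or 3 gave 18, 20 and 15 higher genes and 76, 25 and 24 lower ones. With the block, leaving out pair 1, 2 or 3 gave 11 (0.0605%), 9 (0.0495%) and 5 (0.0275%) higher genes and 24 (0.132%), 13 (0.0715%) and 10 (0.055%) lower ones. In all 6 fits with a single array left out, 36 of the 95 genes were called, 14 higher and 22 lower. They include 8 of the 15 largest increases and 13 of the 15 largest decreases described next.

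**Figure D1:**
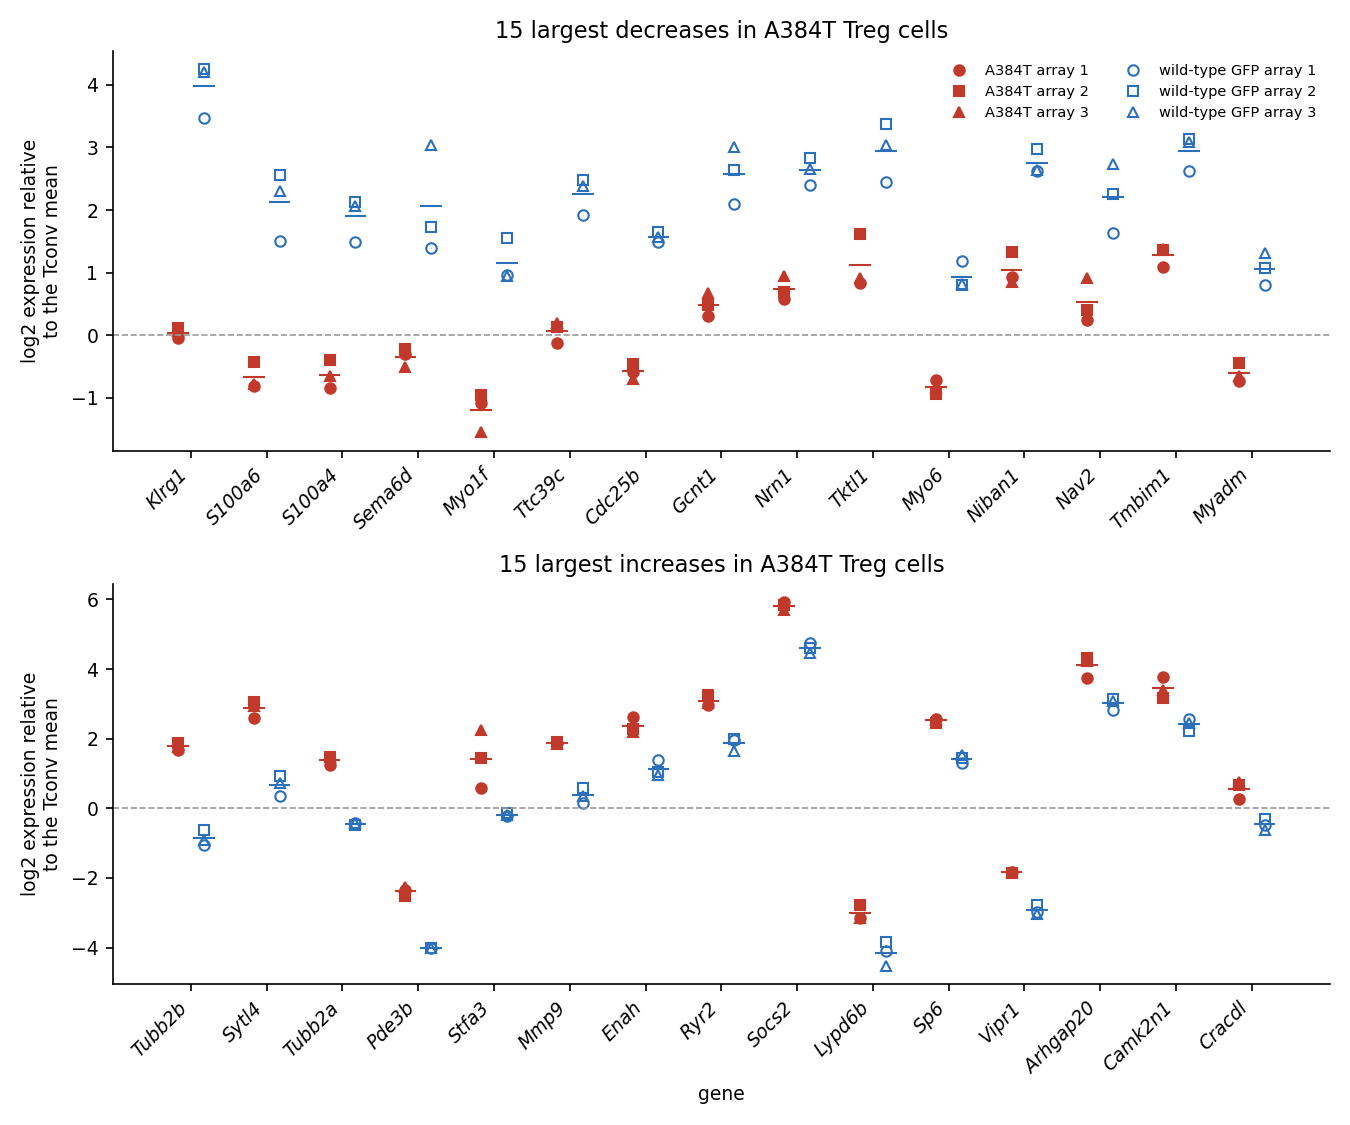
Log2 expression relative to the Tconv mean (y axis) of the 15 genes with the largest called decrease (upper panel) and increase (lower panel), with A384T arrays filled and wild-type GFP arrays of A384T mice open. Symbols mark the array number and short lines the group means. The groups do not overlap for any of the 30 genes, Klrg1 is near 0 in all 3 A384T arrays, and Stfa3 is the increase with the widest spread among A384T arrays.

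The largest change of all was in Klrg1, the lectin-like inhibitory receptor of effector Treg cells. Its values were -0.05, 0.11 and 0.06 in A384T cells, against 3.47, 4.25 and 4.21 in wild-type GFP cells. All A384T arrays sat at the Tconv level. Klrg1 was 15.3-fold lower in A384T cells (log2 difference -3.93 ± 0.38, adjusted p = 0.000227 by limma), and the pairs gave -3.51, -4.14 and -4.15. In sorted bulk cells, fewer cells with a transcript and less of it per cell cannot be told apart. Of 9 measured killer cell lectin receptors Klrg1 was the only one called, and the differences of the list had a median of -0.01.

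The calcium-binding proteins S100a6 and S100a4 followed. S100a6 measured -0.81, -0.43 and -0.78 in A384T cells, against 1.5, 2.57 and 2.30 in wild-type GFP cells. S100a4 measured -0.84, -0.39 and -0.65 in A384T cells and 1.5, 2.14 and 2.07 in wild-type GFP cells. Both genes were below the Tconv level in every A384T array and above it in every wild-type array. S100a6 fell by 2.79 ± 0.30 on the log2 scale (adjusted p = 0.000406) and S100a4 by 2.53 ± 0.31 (adjusted p = 0.00109). In the list of S100 proteins, annexins and galectins 3 of 16 genes fell, 0 rose and 14 lay below 0, with a median of -0.48. The third called member was Anxa1, the phospholipid-binding annexin A1 (-1.40 ± 0.29, adjusted p = 0.0458). The 2 probe sets of Anxa1 disagreed, at -1.40 and 0.05, and their mean was not called (adjusted p = 0.125). Anxa1 was also not called in these 6 arrays alone (adjusted p = 0.155), with a robust prior (0.0502), or without A384T array 1 or 3 or wild-type GFP array 2 or 3 (0.187 to 0.276). The blocked fit of these 6 arrays called 10 genes of this list lower and 1 higher. Over all genes that fit called 3.42% lower and 1.81% higher, which is the background for its counts in every list.

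Batf, the AP-1 factor of tissue Treg cells, stood at -0.41, 0.18 and -0.04 in A384T cells, against 0.81, 1.56 and 1.28 in wild-type GFP cells. The A384T arrays scattered around the Tconv level, and the wild-type arrays were all above them. Batf was 2.48-fold lower in A384T cells (-1.31 ± 0.24, adjusted p = 0.0222 by limma). The call was kept without A384T array 2 (adjusted p = 0.0383) and without wild-type GFP array 1 (0.0134). It was lost without A384T array 1 or 3 or wild-type GFP array 2 or 3, with adjusted p of 0.129, 0.0824, 0.143 and 0.119 in that order. Its adjusted p was 0.0121 with the pairs as blocks in the 18-array fit, and 0.0955, 0.164 and 0.142 there without pair 1, 2 and 3. Batf was the only call among 17 AP-1 and partner factors, whose differences had 8 values above 0, 9 below and a median of -0.0033.

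Klrg1, S100a6, S100a4 and Batf were the called members of the effector and tissue Treg list. This list was chosen with earlier results of these data known. It holds Klrg1, S100a6 and Batf, which were also picked to mark this comparison, so their calls here are no separate result. Of its 23 measured genes 4 fell, 0 rose and 21 lay below 0, with a median of -0.71, and for 15 every A384T array lay below every wild-type GFP array. Over all genes 50.7% lay below 0, and for 6.39% every A384T array lay below every wild-type GFP array. The list's median level was 0.99, 0.98 and 1.18 in the A384T arrays, against 1.63, 2.13 and 2.10 in the wild-type GFP arrays. All A384T medians were lower, yet remained above the Tconv level. The blocked fit of these 6 arrays called 18 of the 23 genes lower and 0 higher, against 3.42% and 1.81% of all genes. Of 26 measured core genes that are known to be higher in Treg cells 1 rose (Socs2) and 1 fell (Nrn1), and the median was -0.20. The median level of that list was 3.14, 3.55 and 3.55 in A384T arrays and 3.23, 3.79 and 3.57 in wild-type GFP arrays. There, 4 core genes were higher and 10 lower with the blocks.

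Sema6d, Gcnt1 and Nrn1 were further large decreases. Sema6d, a transmembrane semaphorin, measured -0.31, -0.21 and -0.51 in A384T cells and 1.40, 1.73 and 3.04 in wild-type GFP cells (-2.40 ± 0.29, adjusted p = 0.00104). Wild-type GFP array 3 stood well above the other two, and the call held without it. Gcnt1, the glycosyltransferase that starts core 2 branches on O-glycans and thereby takes part in making selectin ligands, measured 0.30, 0.48 and 0.67 in A384T cells, against 2.10, 2.63 and 3.0 in wild-type GFP cells (-2.09 ± 0.28, adjusted p = 0.00179). Neuritin, Nrn1, a membrane-anchored protein of Treg cells and neurons, measured 0.57, 0.68 and 0.94 in A384T cells and 2.40, 2.83 and 2.66 in wild-type GFP cells (-1.90 ± 0.17, adjusted p = 0.000149). Nrn1 thus remained above Tconv in A384T cells, as Gcnt1 did.

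Homing and adhesion genes gave few calls. Gpr15, a receptor that guides T cells to the large intestine, was the only call among 18 chemokine and homing receptors: it measured 1.29, 1.60 and 2.25 in A384T cells, against 2.60, 3.52 and 3.97 in wild-type GFP cells (-1.65 ± 0.32, adjusted p = 0.0286). Of these 18 genes 16 lay below 0, with a median of -0.23. The integrin beta 1 chain Itgb1 was the only call among 13 integrin chains (-1.66 ± 0.32, adjusted p = 0.0265), 11 of which lay below 0 with a median of -0.13. Gpr15 was called in 2 of the 6 fits with an array left out and Itgb1 in 1. The blocked fit of these 6 arrays called 7 homing receptors lower and 2 higher, and 3 integrin chains lower and 0 higher.

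Of the myosins, Myo1f and Myo6 were among the 15 largest decreases. Myo1f, an unconventional myosin of leukocytes, measured -1.09, -0.95 and -1.55 in A384T cells and 0.96, 1.55 and 0.95 in wild-type GFP cells (-2.35 ± 0.32, adjusted p = 0.00206). Myo6, which moves towards the minus end of actin filaments, measured -0.72, -0.94 and -0.85 in A384T cells and 1.18, 0.80 and 0.82 in wild-type GFP cells (-1.77 ± 0.23, adjusted p = 0.00179). Both genes were below the Tconv level in every A384T array and above it in every wild-type GFP array. Within 20 actin regulators and myosins, Myo1f fell, Enah rose and the median was -0.06.

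The remaining large decreases belong to varied functions. Cdc25b, a phosphatase that activates cyclin-dependent kinases, was 4.43-fold lower (-2.15 ± 0.30) and hardly varied within the groups, at -0.58 ± 0.12 in A384T and 1.57 ± 0.08 in wild-type GFP cells (SD, n = 3 each). Ttc39c differed by -2.19 ± 0.28, the stress-related Niban1 by -1.71 ± 0.24, Nav2 by -1.68 ± 0.23 and Tmbim1 by -1.67 ± 0.24. Their adjusted p ranged from 0.00144 for Ttc39c to 0.0028 for Cdc25b and Tmbim1. The transketolase-like Tktl1 (-1.83 ± 0.34, adjusted p = 0.0222) and Myadm (-1.67 ± 0.28, adjusted p = 0.0143) were called in only 2 of the 6 fits with an array left out, those without A384T array 2 and without wild-type GFP array 1.

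Among the increases the beta-tubulin isotypes Tubb2b and Tubb2a and the granule-docking protein Sytl4 led. Tubb2b measured 1.68, 1.87 and 1.77 in A384T cells, against -1.06, -0.63 and -0.91 in wild-type GFP cells. It was 6.24-fold higher in A384T cells (2.64 ± 0.21, adjusted p = 3.45e-05 by limma), and the groups lay on opposite sides of the Tconv level. Tubb2a measured 1.24, 1.47 and 1.48 in A384T cells and -0.42, -0.48 and -0.42 in wild-type GFP cells (1.84 ± 0.22, adjusted p = 0.00104). These tubulins are near-identical neighbours in the genome, so their probe sets may share signal, which was not tested. Of 10 measured tubulins only these 2 were called, 6 lay above 0 and the median was 0.11.

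Sytl4, also called granuphilin, binds Rab27 and docks secretory granules at the plasma membrane. It measured 2.60, 3.07 and 2.94 in A384T cells, against 0.34, 0.92 and 0.73 in wild-type GFP cells. It was 4.61-fold higher in A384T cells (2.21 ± 0.16, adjusted p = 1.79e-05), the smallest adjusted p of the 30 genes plotted by array. The pairs shared their order: array 1 was the lowest and array 2 the highest in both groups. Sytl4 was the only call among 11 genes of synaptotagmin-like proteins and Rab27 docking (median -0.04). The granzyme and cytotoxic granule list had 0 of 10 genes called, with a median of 0.08. Its named members were Nkg7 (0.94 ± 0.36, adjusted p = 0.627) and Cst7 (-0.84 ± 0.23, adjusted p = 0.207), and both were called with the pairs as blocks in these 6 arrays (adjusted p = 0.000231 and 0.000747).

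Pde3b, which breaks down cyclic AMP and is kept low in Treg cells, measured -2.34, -2.51 and -2.27 in A384T cells, against -4.01, -4.03 and -4.02 in wild-type GFP cells. It was 3.13-fold higher in A384T cells (1.65 ± 0.25, adjusted p = 0.0067), and all 6 arrays remained below the Tconv level. Socs2, an inhibitor of cytokine signalling that IL-2 and STAT5 induce, measured 5.92, 5.83 and 5.68 in A384T cells, against 4.76, 4.59 and 4.47 in wild-type GFP cells. It was 2.30-fold higher in A384T cells (1.20 ± 0.17, adjusted p = 0.00311), although wild-type cells were already far above Tconv. Socs2 was the only call in the list of IL-2 receptor and STAT5 target genes, where 8 of 12 genes lay above 0 with a median of 0.14. The blocked fit of these 6 arrays called 3 genes of that list higher and 0 lower.

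Enah, an Ena/VASP protein that extends actin filaments, rose by 1.24 ± 0.17 (adjusted p = 0.002). Vipr1, the receptor of vasoactive intestinal peptide, rose by 1.10 ± 0.13 (adjusted p = 0.000812) and Cracdl by 1.03 ± 0.13 (adjusted p = 0.00132). These were also called whichever array was left out. The gelatinase Mmp9 measured 1.88, 1.92 and 1.85 in A384T cells and 0.16, 0.59 and 0.35 in wild-type GFP cells (1.52 ± 0.28, adjusted p = 0.0222). Its call did not survive the loss of any single array, with adjusted p between 0.0628 and 0.117, and neither did that of the transcription factor Sp6 (1.10 ± 0.19, adjusted p between 0.0534 and 0.0759). The calcium release channel Ryr2 (1.21 ± 0.20) and the calmodulin kinase inhibitor Camk2n1 (1.05 ± 0.20) were the calls among 15 calcium and phosphatase signalling genes (median 0.06). Ryr2 was called in 3 of the 6 fits with an array left out and Camk2n1 in 2.

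Stfa3, a cysteine protease inhibitor of the stefin A group, was uneven: 0.57, 1.46 and 2.26 in A384T cells, against -0.22, -0.15 and -0.20 in wild-type GFP cells (1.62 ± 0.28, adjusted p = 0.0176). The call was lost in the fit of these 6 arrays alone (adjusted p = 0.12) and kept in 2 of the 6 fits with an array left out. Lypd6b (1.13 ± 0.21, adjusted p = 0.0241) and Arhgap20 (1.09 ± 0.21, adjusted p = 0.0288) were each called in 1 of these 6 fits. Where a called gene had several probe sets, as 52 of the 95 did, all were of 1 sign for 37 genes and of both signs for 15. The mean of a gene's probe sets gave 0.33 for Enah, 0.50 for Ryr2, 0.39 for Sp6 and 1.01 for Arhgap20, and none of these 4 means was called. It also lay closer to 0, while still called, at 1.18 for Sytl4, 1.16 for Tubb2a, 0.51 for Vipr1, 0.59 for Tgfbr3, -0.65 for Sema6d and -0.52 for Nav2. The means of Ttc39c (-1.43), Tktl1 (-1.07), Myo6 (-1.05) and Itgb1 (-0.71) were likewise called and closer to 0.

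Some called genes lie beside each other, which was looked for after their values were seen, and the genes named for it were chosen then. On the RefSeq gene order 10 pairs of called genes had at most 2 protein-coding genes between them. S100a4 and S100a6 lie together on chromosome 3, Tubb2a and Tubb2b on chromosome 13, and the inflammatory caspases Casp1 (-1.12 ± 0.20) and Casp4 (-1.18 ± 0.22) on chromosome 9. Il17rb, a chain of the IL-25 receptor (-1.49 ± 0.19), adjoins Chdh (-1.58 ± 0.29) on chromosome 14. Sytl4 (2.21) and Xkrx (0.99), both higher, lie on chromosome X, as Foxp3 does, with 2 protein-coding genes between them. Neighbours did not always move the same way: Stfa3 rose while Cd86 fell, and Lypd6b rose while Kif5c fell. The promoter windows of the S100 neighbours and of 2 leading increases, each from 250 bases before to 50 after the gene's start, are shown to set these genes side by side. They are from RefSeq on GRCm38.p6, written 5′ to 3′ on the gene's strand, with the forkhead core TGTTT on either strand (AAACA where it lies on the other one) in capitals. The windows are chr3:90612644-90612943 on the plus strand for S100a6, chr3:90603520-90603819 on the plus strand for S100a4, chrX:133981763-133982062 on the minus strand for Sytl4 and chr13:34077959-34078258 on the minus strand for Tubb2a.
S100a6: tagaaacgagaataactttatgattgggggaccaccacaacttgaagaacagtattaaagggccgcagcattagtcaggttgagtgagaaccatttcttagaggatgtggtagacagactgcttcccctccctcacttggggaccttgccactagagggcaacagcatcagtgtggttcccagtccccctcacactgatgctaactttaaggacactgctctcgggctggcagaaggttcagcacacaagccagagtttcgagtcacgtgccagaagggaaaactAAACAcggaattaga
S100a4: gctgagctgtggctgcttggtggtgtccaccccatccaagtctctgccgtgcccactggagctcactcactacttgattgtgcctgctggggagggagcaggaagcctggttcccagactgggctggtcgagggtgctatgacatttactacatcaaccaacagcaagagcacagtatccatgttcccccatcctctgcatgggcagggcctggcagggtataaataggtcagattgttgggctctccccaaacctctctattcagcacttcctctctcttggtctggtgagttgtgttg
Sytl4: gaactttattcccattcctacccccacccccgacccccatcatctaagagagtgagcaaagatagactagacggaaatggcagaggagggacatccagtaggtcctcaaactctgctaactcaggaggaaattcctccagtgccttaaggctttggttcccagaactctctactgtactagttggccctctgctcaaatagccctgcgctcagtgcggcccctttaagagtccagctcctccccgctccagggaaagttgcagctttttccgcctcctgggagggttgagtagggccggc
Tubb2a: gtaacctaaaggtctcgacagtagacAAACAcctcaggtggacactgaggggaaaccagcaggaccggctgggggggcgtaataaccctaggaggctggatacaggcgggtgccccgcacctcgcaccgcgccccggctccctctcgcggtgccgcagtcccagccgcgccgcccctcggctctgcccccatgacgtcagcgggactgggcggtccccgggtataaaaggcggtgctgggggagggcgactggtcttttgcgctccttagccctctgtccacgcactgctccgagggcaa
S100a6 and Tubb2a hold 1 match each and S100a4 and Sytl4 hold 0. Of the called genes 19 higher ones had 21 such windows and 50 lower ones had 74. The core was in 28.6% of the windows of higher genes and 41.9% of those of lower genes, against 50.5% of all 32851 windows. The longer forkhead motif TGTTTAC, on either strand and holding the core, was in 0 of 21 and 2.7%, against 3.65% of all. The AP-1 motif TGANTCA was in 3 of 21 (14.3%) and 4 of 74 windows (5.41%), against 7.81% of all. These counts are too small to set the higher and lower genes apart. A match is a stretch of letters and not a bound site, and windows of 1 gene overlap.

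The direction of change was then set beside the difference between wild-type Treg cells of wild-type mice and Tconv cells. The group means of that difference use none of the 6 arrays. Its calls come from the same limma fit, so the variance estimate of each gene includes the 6 arrays. Probe sets were also chosen by their variance over all arrays. A small variance estimate favours a call in both comparisons, so the shared calls are no independent count. Of the 64 genes lower in A384T cells 43 were called higher in Treg than in Tconv cells, 1 was called lower and 20 were not called. Over all genes 3.81% were called higher in Treg cells and 2.03% lower. The 43 genes had a median level of 0.34 in A384T cells and 1.63 in wild-type GFP cells, and 34 of them stayed above the Tconv mean in A384T cells. They are 6.20% of the 694 genes higher in Treg cells, so most such genes were not called between A384T and wild-type GFP cells. The exception, Epas1, which encodes the oxygen-sensing factor HIF-2alpha and was chosen after its values were seen, was -3.11 ± 0.26 in A384T cells and -1.76 ± 0.10 in wild-type GFP cells (SD, n = 3 each), below Tconv in both. Its call (adjusted p = 0.0491) did not survive the loss of any single array.

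**Figure D2:**
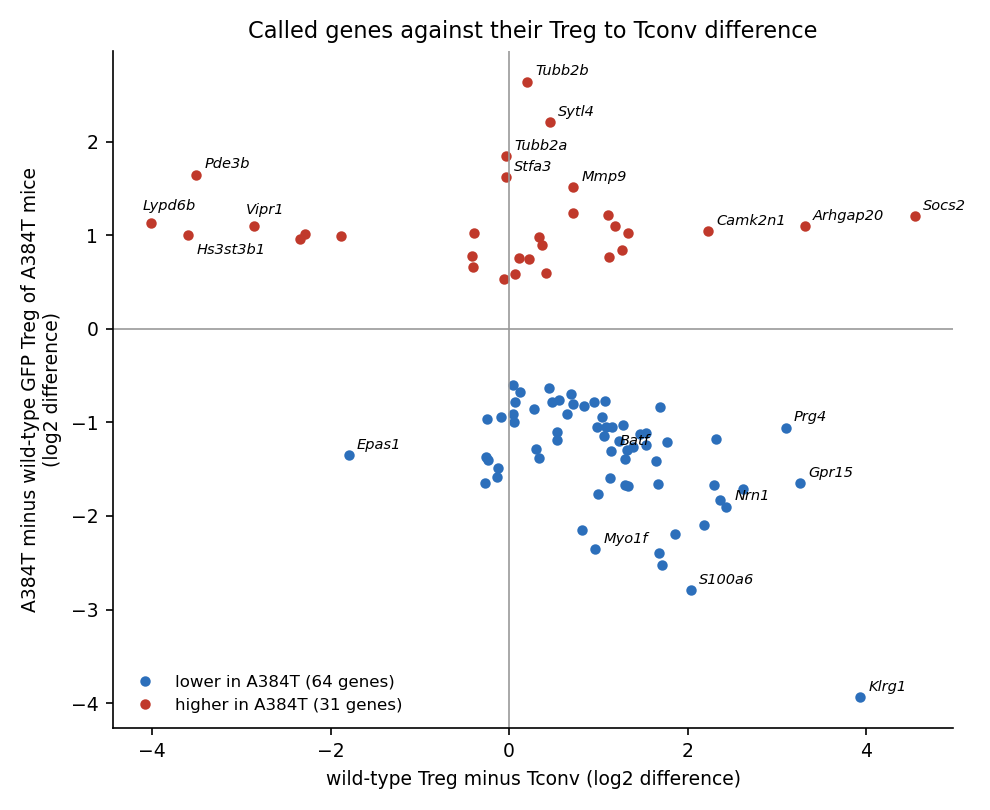
Log2 difference between A384T and wild-type GFP Treg cells of A384T mice (y axis) against the log2 difference between wild-type Treg cells of wild-type mice and Tconv cells (x axis) for the 95 called genes. Most of the 64 lower genes (blue) lie to the right of 0, while the 31 higher genes (red) spread from Lypd6b at the left to Socs2 at the right.

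The 31 genes higher in A384T cells were of 3 kinds. Called higher in Treg than in Tconv cells were 9 genes, such as Socs2, Arhgap20, Camk2n1 and Ryr2, with a median level of 2.52 in A384T cells and 1.42 in wild-type GFP cells. Called lower in Treg cells were 8 genes, such as Lypd6b, Pde3b, Vipr1 and Tgfbr3, with a median of -1.71 in A384T cells and -2.74 in wild-type GFP cells. Of these 8, 7 remained below the Tconv mean. The other 14 genes, with Tubb2b, Sytl4, Tubb2a, Stfa3 and Mmp9 among them, were not called between Treg and Tconv cells, and all 14 were above the Tconv mean in A384T cells (median 1.24, against 0.19 in wild-type GFP cells). Of 13 measured core genes that are lower in Treg cells, Pde3b and the TGF-beta co-receptor Tgfbr3 (0.96 ± 0.14, adjusted p = 0.00337) rose, 0 fell and the median was 0.01. Under the block in these 6 arrays 5 were higher and 0 lower.

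Because mutation and reporter coincide, the difference was set against the same reporter difference in wild-type mice, hCD2 minus GFP cells (2 arrays each). That reporter comparison called 0 genes in limma, while 462 (2.54%) had an unadjusted p under 0.05. With 2 arrays each, the lack of calls says little about small reporter differences. Among the 95 genes the reporter difference was at most 0.55 in size, with a median size of 0.127, against a median size of 1.12 for the difference in A384T mice. The 95 were chosen by the difference in A384T mice and not by the reporter difference, so the choice itself favours this contrast of sizes. The interaction, which is the difference in A384T mice minus that in wild-type mice, had the same sign as the difference in A384T mice for all 95. It contains the difference by which the 95 were chosen, so this sign was largely set by that choice. The interaction was called positive for 5 genes (0.0275%) and negative for 4 (0.022%), and all 9 are among the 95.

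**Figure D3:**
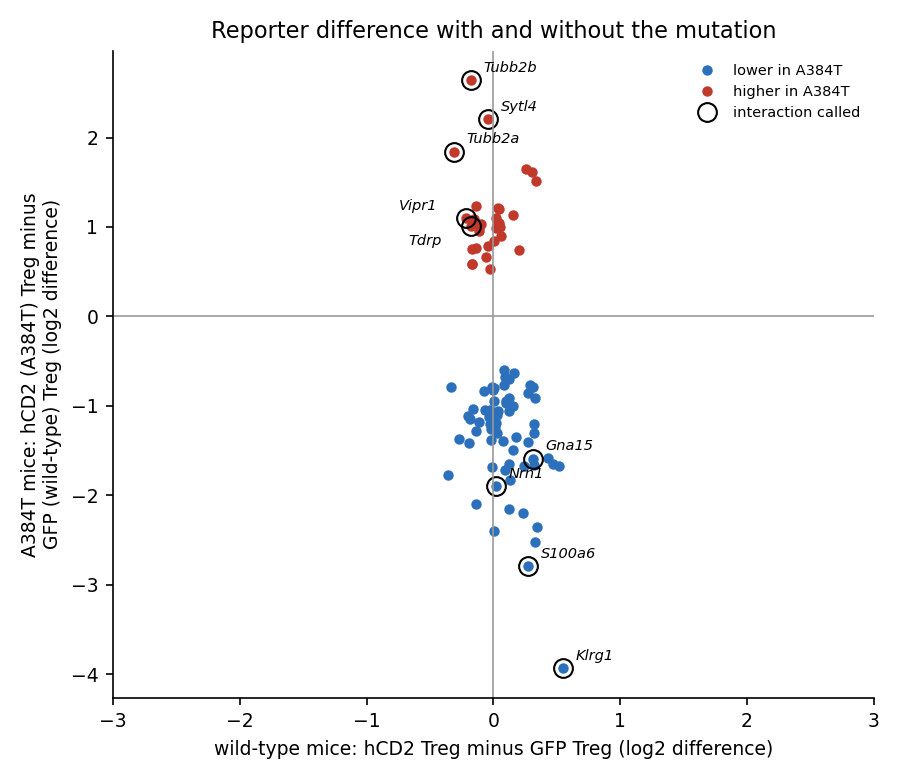
Log2 difference between A384T (hCD2) and wild-type GFP Treg cells of A384T mice (y axis) against the log2 difference between hCD2 and GFP Treg cells of wild-type mice (x axis) for the 95 called genes, lower genes in blue and higher genes in red. Circles ring the 9 genes with a called interaction, and the horizontal spread is small, with Klrg1 farthest from 0 at 0.55.

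The wild-type GFP cells of A384T mice and those of wild-type mice were also compared, since the level of the wild-type cells enters each difference. With limma 0 genes were called, and 473 had an unadjusted p under 0.05. Of the 64 genes lower in A384T cells, 56 nevertheless had a higher level in the wild-type GFP cells of A384T mice than in those of wild-type mice, with a median difference of 0.31, and this enters their decreases. The 64 genes were chosen by a difference that uses the same wild-type GFP arrays, so the choice itself favours this sign. No share over all genes is given beside it, so it does not show a shift of the wild-type cells. Of the 31 higher genes 16 lay above 0 and 15 below. Of the 95 genes Tubb2b had the most distant wild-type levels: -1.06, -0.63 and -0.91 in A384T mice, against 0.30 and 0.29 in wild-type mice (-1.16 ± 0.23, adjusted p = 1). Against wild-type hCD2 cells, which share the reporter, Tubb2b was 1.66 ± 0.23 higher in A384T cells (adjusted p = 0.00662), a smaller value than the 2.64 within A384T mice. That comparison called 23 of the 64 lower genes lower (0.143% of all genes were) and 21 of the 31 higher genes higher (0.137% of all), and all 95 kept their sign. It gave 2.43 ± 0.18 for Sytl4, -4.17 ± 0.42 for Klrg1, -2.84 ± 0.33 for S100a6 and -1.25 ± 0.27 for Batf. Of these, all but Batf (adjusted p = 0.0807) were called. These values use the same A384T arrays as the comparison inside A384T mice, so they are no repeat in other samples.

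The group means of I363V and R397W cells, each against wild-type hCD2 cells, share no array with the comparison inside A384T mice. They share their wild-type arrays with each other. Their calls come from the same fit and probe sets as those inside A384T mice, with a shared variance estimate for each gene. The shared calls are therefore no independent count either. Of the 64 genes lower in A384T cells, 27 were called lower and 0 higher in I363V cells, where 0.682% of all genes were lower and 0.231% higher. In R397W cells 44 were lower and 1, Myo6, was higher, where 1.55% of all genes were lower and 0.715% higher. The 27 genes are 42.2% of the 64 and 21.8% of the 124 genes lower in I363V cells. The 44 are 68.8% of the 64 and 15.6% of the 282 genes lower in R397W cells. Klrg1 was -4.41 ± 0.42 in I363V and -4.77 ± 0.42 in R397W cells, and S100a6 was -3.0 ± 0.33 and -3.38 ± 0.33. Batf was -0.76 in I363V and -0.61 in R397W cells and was called in neither.

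**Figure D4:**
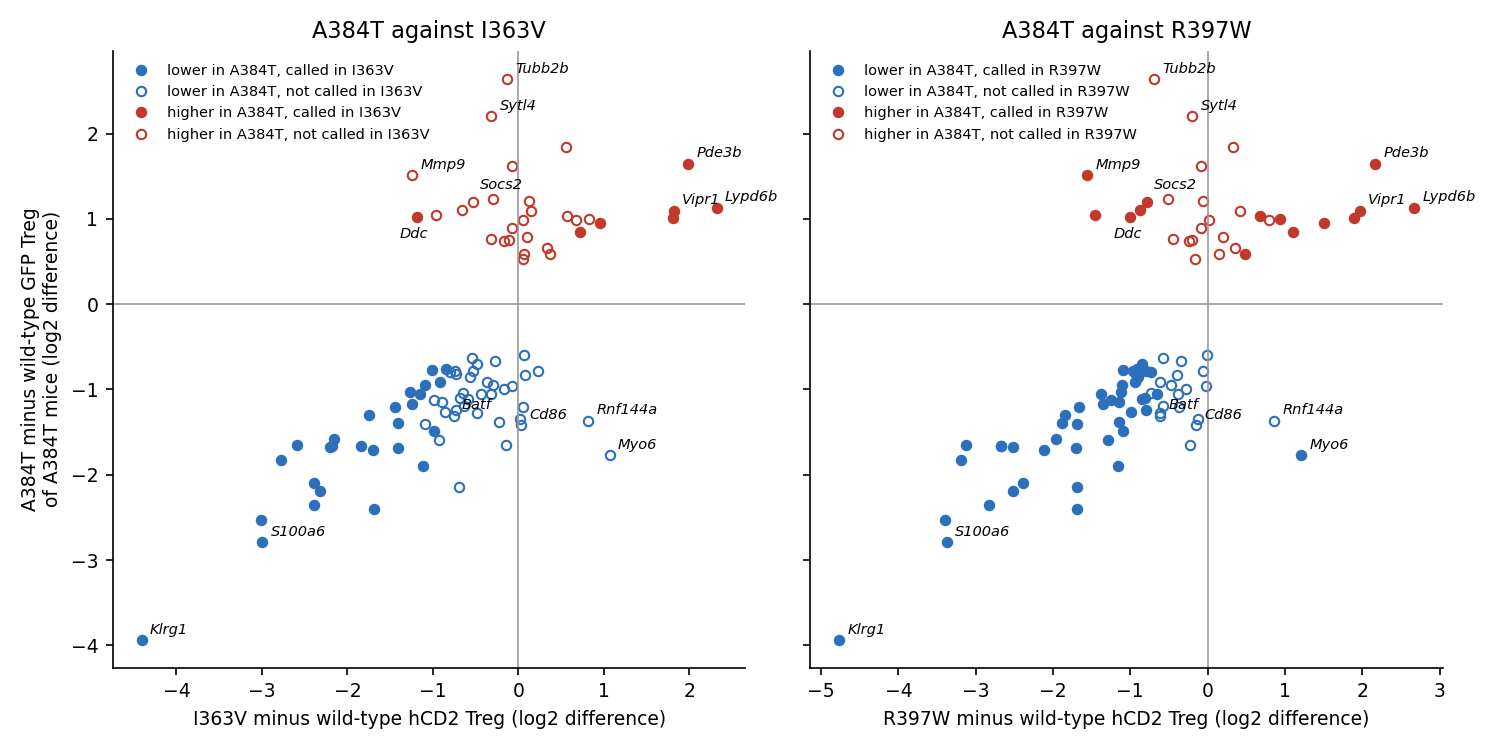
Log2 difference between A384T and wild-type GFP Treg cells of A384T mice (y axes) against that of I363V (left) or R397W (right) Treg cells minus wild-type hCD2 Treg cells (x axes), for the 95 called genes. Filled points were also called in the other mutant, in either direction. The lower genes (blue) lie mostly left of 0 in both panels, with Myo6 at the right, while the higher genes (red) fall on both sides.

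The genes higher in A384T cells divided between these mutants. In I363V cells 6 of the 31 were higher and 1 (Ddc) lower, and in R397W cells 9 were higher and 5 lower. The 6 genes higher in all 3 mutants were Lypd6b, Ncoa7, Pde3b, Tdrp, Tgfbr3 and Vipr1, and all but Ncoa7 are called lower in Treg than in Tconv cells. The difference in A384T mice was tested against the difference in each other mutant, a comparison added after the values were seen. On the A384T side the wild-type cells were GFP cells of A384T mice. For the other mutants they were hCD2 cells of wild-type mice, so reporter and mice also differ. Against I363V 15 genes were called higher (0.0824%) and 4 lower (0.022%), and against R397W 32 (0.176%) and 13 (0.0715%). Among the 31 genes, which were chosen by the same A384T difference, those called higher against both were Sytl4, Tubb2b, Socs2, Enah, Camk2n1, Mmp9, Sp6 and Ddc. Genes outside the 31 were not looked at for both.

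Sytl4 was -0.32 ± 0.18 in I363V and -0.20 ± 0.18 in R397W cells, and its difference in A384T mice exceeded these by 2.52 ± 0.24 (adjusted p = 0.000311) and 2.41 ± 0.24 (adjusted p = 0.00038). Tubb2b was -0.13 ± 0.23 in I363V and -0.69 ± 0.23 in R397W cells and was exceeded by 2.77 ± 0.31 (adjusted p = 0.0022) and 3.33 ± 0.31 (adjusted p = 0.000331). As given above, Tubb2b rose less against wild-type hCD2 cells than against wild-type GFP cells of A384T mice. Its excess over I363V and R397W is smaller on that shared hCD2 baseline. Some genes were called in opposite directions. Ddc, the decarboxylase that makes dopamine and serotonin, was 1.81, 1.79 and 2.09 in A384T cells, against 0.69, 0.91 and 1.03 in wild-type GFP cells (1.02 ± 0.11), yet was -1.19 ± 0.12 in I363V and -1.0 ± 0.12 in R397W cells. Its second probe set lay at -0.05 in A384T mice. Socs2 was -0.53 ± 0.19 in I363V (adjusted p = 0.342) and -0.78 ± 0.19 in R397W cells (adjusted p = 0.0487), and Mmp9 was -1.24 ± 0.31 (adjusted p = 0.0931) and -1.56 ± 0.31 (adjusted p = 0.0159).

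Among the genes called lower in A384T cells, those also called lower against both other mutants were Cd86, Myo6 and the ubiquitin ligase Rnf144a. Cd86, a costimulatory ligand best known from antigen-presenting cells, was 0.17, 0.49 and 0.53 in A384T cells, against 1.66, 1.97 and 1.81 in wild-type GFP cells (-1.42 ± 0.15, adjusted p = 0.000372). In I363V and R397W cells it was 0.03 ± 0.16 and -0.15 ± 0.16. Myo6 was 1.07 ± 0.26 in I363V (adjusted p = 0.08) and 1.21 ± 0.26 in R397W cells (adjusted p = 0.0234), opposite to its -1.77 in A384T mice. Ncoa7, Tdrp, Ddc, Cd86 and Rnf144a were chosen after their values were seen.

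Other gene groups had no called gene in the fit of all 18 arrays. The 11 secreted and suppressor molecules had 10 differences below 0 and a median of -0.41. This list shares members, such as Fgl2 and Lgals1, with the effector and tissue Treg list, so the lists are not separate results. Fgl2, a suppressive molecule secreted by Treg cells, was 1.12 ± 0.39 in A384T and 2.54 ± 0.50 in wild-type GFP cells (SD, n = 3 each), a difference of -1.42 ± 0.42 (adjusted p = 0.279). Galectin-1, Lgals1, differed by -1.07 ± 0.24 (adjusted p = 0.075). Under the block in these 6 arrays 6 of the 11 genes were lower and 0 higher, including Fgl2 (adjusted p = 0.000546) and Lgals1 (0.000406).

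In the helper lineage lists 6 of 8 Th1 genes (median -0.13), 7 of 8 Th2 genes (-0.40), 3 of 5 Th17 genes (-0.11) and 8 of 9 Tfh genes (-0.34) lay below 0. Over all genes 50.7% did, and the Th17 count is near that share. Under the block in these 6 arrays 2 Th1, 4 Th2, 1 Th17 and 4 Tfh genes were lower and 1 Th1 gene was higher. Over all genes that blocked fit called 3.42% lower and 1.81% higher. In these lists Il18rap, a chain of the IL-18 receptor, differed by -1.55 ± 0.33 (adjusted p = 0.0594) and the receptor-like nuclear factor Rora by -1.27 ± 0.51 (adjusted p = 0.73). Ifng, the signature cytokine of Th1 cells, stood at 1.81, 1.83 and 1.45 in A384T cells and 0.48, 0.91 and 0.56 in wild-type GFP cells (1.05 ± 0.45, adjusted p = 0.856). The arrays of the groups did not overlap for Ifng, and the SE over all groups was wide. The blocked fit of these 6 arrays gave an adjusted p of 0.000162 for Il18rap, 7.11e-05 for Rora and 0.000538 for Ifng. The IL-1 and IL-18 receptor list had 7 of 8 genes below 0 (median -0.27), and Il1r2, the decoy receptor of IL-1, was called with the block in the 18-array fit (-1.39, adjusted p = 0.0357) and not without it (0.163).

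Proliferation genes gave small differences of 1 sign. All 23 cell cycle genes lay below 0 (median -0.28), 0 were called, and 7 were lower with the pairs as blocks in these 6 arrays. Mki67, the Ki-67 antigen, measured -0.38, 0.63 and -0.59 in A384T cells and 0.46, 1.63 and 0.63 in wild-type GFP cells. The groups overlapped, and array 2 was the highest in both (-1.02 ± 0.60, adjusted p = 1). Of 12 glycolysis genes 9 lay below 0 (median -0.20), and of 12 cholesterol genes 8 lay above 0 (median 0.12). In the blocked fit of these 6 arrays, the calls were 1 glycolysis gene higher and 3 lower, and 1 cholesterol gene higher and 0 lower.

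**Figure D5:**
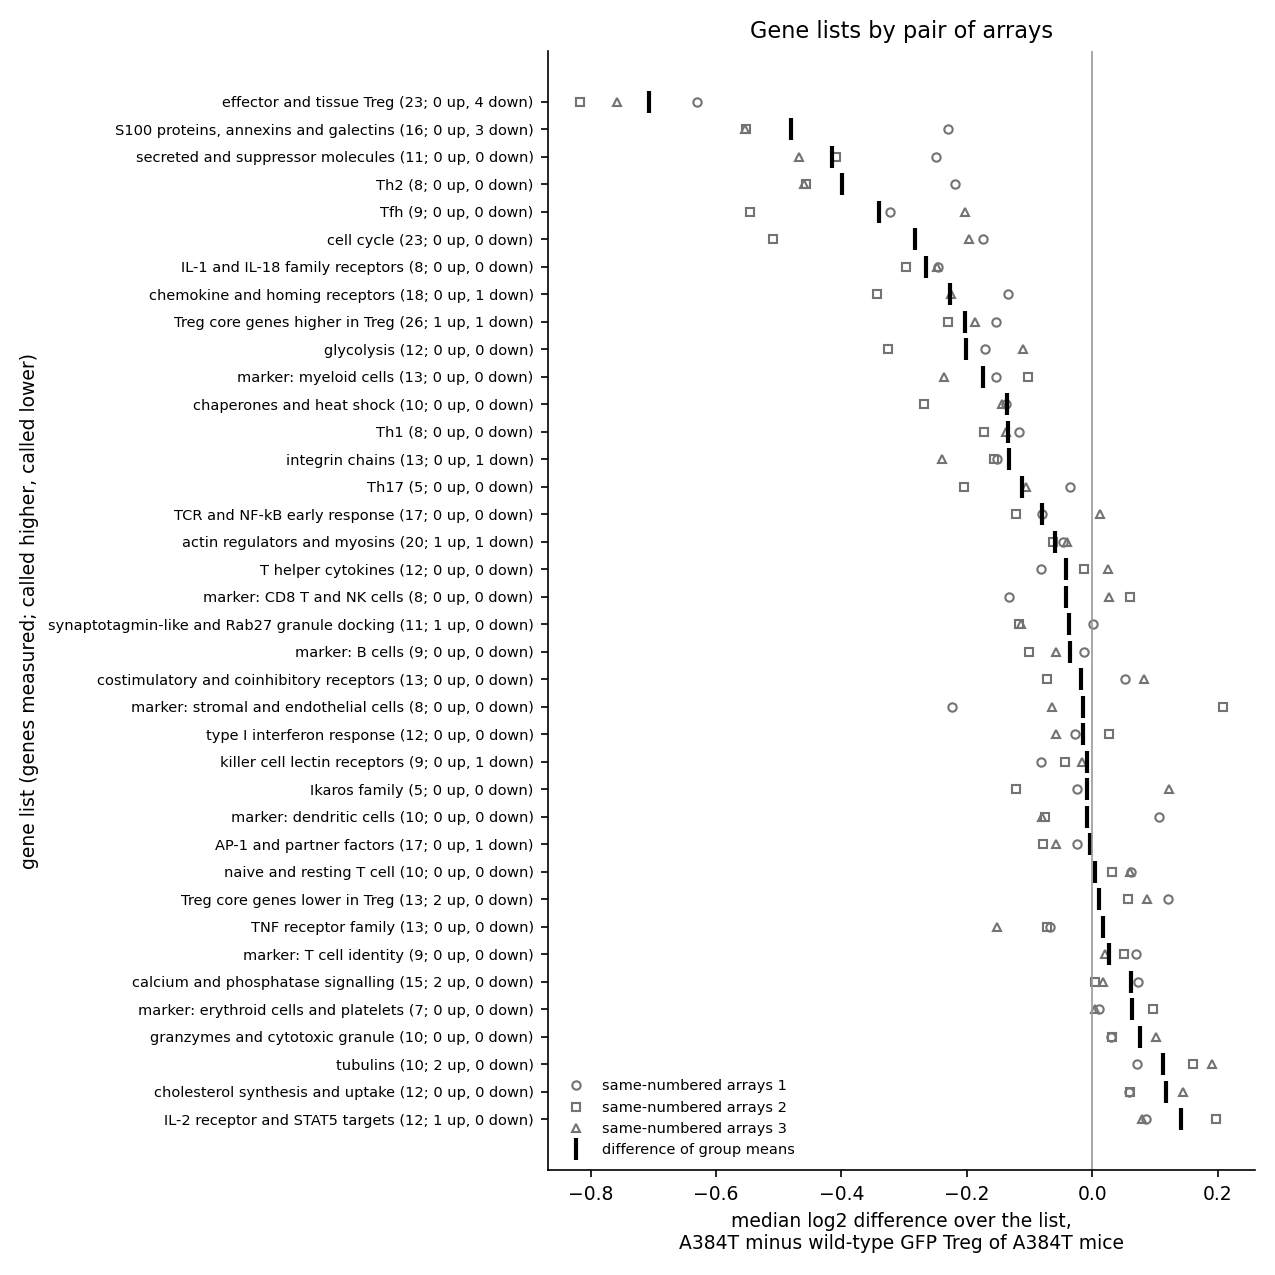
Median log2 difference between A384T and wild-type GFP Treg cells of A384T mice (x axis) for each gene list (y axis), with open symbols for the 3 pairs of same-numbered arrays and a bar for the difference of group means. Counts in brackets are genes measured, called higher and called lower, and the effector and tissue Treg list lies farthest below 0, at -0.71. The lists were chosen with earlier results of these data known.

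Naive T cell genes (10, median 0.0041), TCR and NF-kB early genes (17, -0.08), costimulatory and coinhibitory receptors (13, -0.02) and the TNF receptor family (13, 0.02) had medians near 0. So did T helper cytokines (12, -0.04), interferon response genes (12, -0.01) and the Ikaros family (5, -0.01), while chaperones were at -0.14 (10 genes). The blocked fit of these 6 arrays called 1.81% of all genes higher and 3.42% lower. Counts of 1 or 2 in such short lists are therefore no result about a list. That fit called 3 naive genes higher and 1 lower. It called 2 TCR and NF-kB, 3 costimulatory and coinhibitory, 3 TNF receptor, 1 interferon and 2 chaperone genes lower and 0 higher. It called 1 cytokine gene higher and 1 lower, and 1 Ikaros gene higher and 2 lower. Among these genes were the lymph node homing receptor Ccr7 (0.69 ± 0.24, adjusted p = 0.526, and 0.00209 with that block) and the IL-7 receptor chain Il7r (-0.55 ± 0.28, adjusted p = 1, and 0.00689 with that block). The orphan nuclear receptor Nr4a2 (-0.72 ± 0.68, adjusted p = 1) was called in the 6 arrays alone, with the block (0.00179) and without it (0.0268). Markers of other cell types gave 0 calls in the fit of all 18 arrays. The blocked fit of these 6 arrays called 2 CD8 T and NK cell genes and 1 stromal and endothelial gene higher. The medians of the marker lists were -0.04 for B cells (9 genes), -0.01 for dendritic cells (10), -0.04 for CD8 T and NK cells (8), 0.06 for erythroid cells and platelets (7) and -0.02 for stromal and endothelial cells (8). The myeloid list lay lowest, with 11 of 13 genes below 0, a median of -0.17 and 5 genes lower with the pairs as blocks in these 6 arrays. Its median level was -0.79, -0.01 and -0.77 in the A384T arrays and -0.51, 0.04 and -0.44 in the wild-type GFP arrays. Array 2 was the highest in both groups. Whether a marker is absent cannot be read from values centred on Tconv, and the part of these cells in the S100 and cell cycle values was not tested.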

How the data were processed

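The arrays are Affymetrix mouse chips with 45101 probe sets, hybridized with RNA of sorted cells. The authors used RMA per the submitters' processing notes (no version given), and the deposited values are taken as log2 by its convention. No label states the base, and every fold rests on it. The values, from -5.80 to 7.59, are shifted so that the 2 Tconv arrays sum to at most 1.0e-06 in size at every probe set. No further normalization was applied, and no scanner files were used. By GEO's annotation of the chip 34945 probe sets name a single gene, 932 name more, 9160 name none and 64 are controls. For each of 18193 genes the probe set that varied most across all 18 arrays was used.

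Group means of the 18 arrays were fitted with limma 3.58.1 in R 4.3.3 (11 residual and 3.29 prior degrees of freedom), with two-sided moderated tests and Benjamini-Hochberg adjustment over all genes. The number of arrays limits the precision. Deviations from group means correlated across genes by 0.69, 0.65 and 0.58 for arrays of equal number and by -0.45 to -0.16 for unequal numbers. The numbers therefore pair the samples, although no label states it.

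The comparison and the gene lists (31 programmes, 7 marker lists) were chosen with earlier results of these data known. Lists share members, so a gene can be counted in several. The effector and tissue Treg list shares S100a4 and S100a6 with the S100 list, Ccr8 with the Th2 list and Rora with the Th17 list. Named are Foxp3, Klrg1, S100a6, Batf, Tubb2b, Sytl4, the 15 largest called differences in each direction of 1 sign in all pairs, and per list at most 4 called genes, or up to 2 with the largest difference where none was called. Further software was pandas 2.3.3, numpy 2.4.6 and matplotlib 3.10.9 under Python 3.11.15. Alternatives were the pairs as blocks, the 6 arrays alone, other probe set rules, medians set to 0, a variance filter, a robust prior and each array left out. Blocks with a pair left out were added after the data were seen.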

Additional observations from a re-analysis of the deposited data

Results flagged for a closer look

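For 9 genes the difference between mutant and wild-type Treg cells inside A384T mice was unlike the reporter difference in wild-type mice by limma's test of the interaction. The interaction was 2.82 for Tubb2b and 2.25 for Sytl4 (adjusted p = 0.00502 each), 2.15 for Tubb2a (0.0498), 1.31 for Vipr1 and 1.19 for Tdrp (0.0333 each). It was -4.48 for Klrg1 (0.0163), -3.07 for S100a6 and -1.91 for Gna15 (0.0333 each) and -1.92 for Nrn1 (0.0251). With the pairs as a block in the 18-array fit, which follows the pairing, the calls of Tubb2a (adjusted p = 0.0958) and Vipr1 (0.0702) were lost. The 4 negative interactions of that blocked fit were Klrg1, S100a6, Nrn1 and Nav2 (adjusted p = 0.0191). Gna15 thus lost its call there as well, and Nav2 gained one (0.203 without the block). Tubb2a was also lost with a robust prior (0.0564) and Vipr1 with the mean of probe sets (0.49, adjusted p = 0.791), and both lost the call whichever of the 6 arrays was left out. Gna15, a G protein alpha subunit, and Tdrp were chosen after their values were seen.

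In wild-type mice Klrg1 was 3.49 and 4.92 in hCD2 cells and 2.89 and 4.43 in GFP cells, and Tubb2b was -0.07 and 0.30 in hCD2 cells and 0.30 and 0.29 in GFP cells. Gna15 was 0.18, 0.09 and 0.10 in A384T cells and 1.26, 1.94 and 1.94 in wild-type GFP cells, against 1.13 and 1.44 in hCD2 cells and 0.75 and 1.18 in GFP cells of wild-type mice. Only Sytl4 and Tubb2b kept the interaction call whichever of the 6 arrays was left out, with adjusted p of at most 0.0234 for Sytl4 and 0.026 for Tubb2b. Klrg1 lost it without A384T array 1 or 2 or wild-type GFP array 2 or 3 (adjusted p between 0.0535 and 0.0678). The count of negative interactions was lowest, at 0, without A384T array 1, A384T array 2 or wild-type GFP array 2, and highest, at 8, without wild-type GFP array 1.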

How the results depend on the processing

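No result recomputed reversed, either under a single changed choice or where the replicate block was joined to fewer arrays. With the replicate block in the 6 arrays alone 330 genes were higher and 622 lower, and without a block these arrays gave 102 lower genes. Leaving out an array gave 15 to 23 higher and 24 to 76 lower genes, and leaving out a pair under the replicate block in the 18-array fit gave 11, 9 and 5 higher and 24, 13 and 10 lower genes. Whichever pair was left out, 13 of the 95 genes were called, among them Klrg1, S100a6, Tubb2b and Sytl4 but not Batf (adjusted p between 0.0955 and 0.164). The replicate block over 18 arrays left 3 positive interactions, and so did leaving out the genes of low variance, which gave 7 negative ones. The mean of probe sets gave 10 negative interactions. Leaving out an array gave 2 to 3 positive and 0 to 8 negative interactions. The cause of these shifts was not tested. Over the named genes, 1208 recomputed differences kept their side of the threshold, 133 lost a call and 48 gained one, and 93 recomputed list medians moved beyond the spread between replicates while 438 did not. Values centred on Tconv hide each gene's level, so a filter on dim probe sets was not run, and groups of 3 arrays, or 2 for wild-type mice and Tconv, limit every estimate.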
